A study of Mus musculus with 9 samples.

Results

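Transcripts of 7 antimicrobial genes of the intestinal crypt were followed across 3 subsets of mouse γδ T cells: the alpha-defensins Defa21, Defa22 and Defa24, the lysozyme Lyz1, the lectins Reg3b and Reg3g, and the ribonuclease Ang4. They are 7 of the 22180 genes that had an array row carrying a single gene symbol, and each of the 7 had exactly 1 such row. They were chosen from earlier results on these same arrays because they were high in the intestinal cells, so their differences between intestinal and lymph node cells are given as a description, without a test.

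Intraepithelial lymphocytes (IELs) were taken from the intestinal epithelium, and peripheral lymph nodes gave the other subsets, Naive-like and Type-1. All were labelled γδ T cells of C57BL/6 mice, with no further allele, treatment or age in the labels, and each subset had 3 biological replicates, 9 arrays in all (Affymetrix Mouse Gene 2.0 ST). IELs were shaken off pieces of gut with EDTA and a reducing agent and collected from a Percoll step, whereas lymph nodes were mashed. The protocol covers colon as well as small intestine, a code in the IEL sample descriptions (SI) points to the small intestine, and no label states the sort gates. Whether a replicate was 1 mouse or a pool is not stated, so a p-value here reflects how far these samples spread, which may be technical, and subset and tissue of origin cannot be told apart in a comparison with IELs. The pan-T-cell genes Cd3d, Cd3e and Cd3g and the leukocyte gene Ptprc lay between 10.06 and 12.32 on all 9 arrays. Values are log2 intensities, with a median of 4.52 over all genes. Arrays of 1 subset correlated at 0.947 to 0.982 and arrays of different subsets at 0.912 to 0.975 across genes.

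Paneth cells sit at the base of the small intestinal crypts and release granules of antimicrobial proteins into the lumen. Alpha-defensins, called cryptdins in the mouse, are short cationic peptides that damage bacterial membranes, and in mice they are cut from their precursors by the protease Mmp7. Reg3b and Reg3g are secreted C-type lectins that enterocytes as well as Paneth cells make, and their transcription is known to rise with interleukin-22 signalling through STAT3. Antimicrobial transcripts have also been described in γδ IELs, which lie between the epithelial cells.

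The windows upstream of Defa21 and of the Reg3 genes are printed because the first is shared, letter for letter, by a pair of genes with near-equal differences, and the Reg3 genes are neighbours on the same chromosome. They run from 250 bases before the annotated start to 50 bases after it (RefSeq, GRCm38.p6), and 6 of the 7 genes had one. Defa21 lies at chr8:21025295-21025594 and Defa22 at chr8:21162027-21162326, both on the plus strand. Reg3b lies at chr6:78370635-78370934 on the plus strand and Reg3g at chr6:78468825-78469124 on the minus strand. Capitals mark the letters TATAAA (the TATA box core), ATCAAAG (a core of TCF/LEF factors, which act in Wnt signalling) and TTCNNNGAA (the STAT palindrome) on either strand, so that TTTATA and CTTTGAT are matches on the other strand.
Defa21 and Defa22: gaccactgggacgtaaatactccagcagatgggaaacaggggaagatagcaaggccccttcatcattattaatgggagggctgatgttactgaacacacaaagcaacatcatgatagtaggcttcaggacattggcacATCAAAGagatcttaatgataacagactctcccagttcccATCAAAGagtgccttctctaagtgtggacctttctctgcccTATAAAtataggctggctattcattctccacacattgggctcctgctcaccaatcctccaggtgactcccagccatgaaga
Reg3b: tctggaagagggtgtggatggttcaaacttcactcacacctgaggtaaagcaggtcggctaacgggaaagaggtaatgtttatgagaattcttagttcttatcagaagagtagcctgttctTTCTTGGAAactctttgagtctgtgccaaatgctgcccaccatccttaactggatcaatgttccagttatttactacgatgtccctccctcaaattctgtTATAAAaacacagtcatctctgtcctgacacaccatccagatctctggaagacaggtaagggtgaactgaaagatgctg
Reg3g: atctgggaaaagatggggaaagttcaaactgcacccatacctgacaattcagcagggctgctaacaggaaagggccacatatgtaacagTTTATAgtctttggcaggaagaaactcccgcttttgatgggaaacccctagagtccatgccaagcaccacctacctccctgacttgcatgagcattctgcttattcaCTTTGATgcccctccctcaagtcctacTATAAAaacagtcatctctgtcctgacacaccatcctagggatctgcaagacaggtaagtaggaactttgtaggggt

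The Defa21 window matched that of Defa22 at 100% of its 300 bases, whereas those of Reg3b and Reg3g were 68.1% identical. Of 14 further alpha-defensin windows, 3 were over 95% identical to that of Defa21. TATAAA began 31 bases before the start in Defa21 and Defa22, 29 in Reg3b and 27 in Reg3g. The letters ATCAAAG stood 112 and 72 bases before the start of Defa21 and Defa22, and 54 bases before that of Reg3g on the other strand. TTCNNNGAA was found in Reg3b, 129 bases before the start, and in Ang4, 192 bases before it. Of the 6 windows, 4 held TATAAA, 3 held ATCAAAG and 2 held TTCNNNGAA, while 13.6%, 3.73% and 8.3% of 32851 promoter windows of the same length did. A match describes the letters only. Since near-identical copies can share array probes, the value of a single alpha-defensin is uncertain as to which copy it reads.

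The alpha-defensins had the largest differences of the 7 genes. Defa21 read 9.37, 10.01 and 9.64 on IEL replicates 1, 2 and 3, against 2.49, 3.13 and 2.71 on the Naive-like arrays and 2.83, 3.18 and 2.57 on the Type-1 arrays. All 3 IEL arrays were far above the other 6, and the lymph node subsets overlapped. The IEL mean of 9.67 ± 0.32 (SD, n = 3) was 6.89 ± 0.25 (SE) above the Naive-like mean, a 119-fold difference, and 6.81 ± 0.25 above the Type-1 mean, or 113-fold.

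Defa22 read 8.79, 9.68 and 9.52 in IELs, 2.43, 1.59 and 2.36 in Naive-like cells and 2.72, 2.69 and 2.29 in Type-1 cells. Its lowest IEL array was 6.07 above its highest lymph node array, and again the lymph node subsets overlapped. The IEL mean of 9.33 ± 0.48 (SD, n = 3) lay 7.20 ± 0.29 (SE) above the Naive-like mean (148-fold) and 6.76 ± 0.29 above the Type-1 mean (109-fold).

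For Defa24 the IEL arrays gave 8.91, 9.74 and 8.51, the Naive-like arrays 3.67, 3.74 and 2.88, and the Type-1 arrays 3.55, 3.6 and 3.4. The IEL arrays stood apart from the other 6, by 4.77 at the narrowest point. The differences were 5.63 ± 0.31 (SE, 49.4-fold) from Naive-like and 5.54 ± 0.31 (46.4-fold) from Type-1 cells.

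Lyz1, which encodes the lysozyme form made by Paneth cells in mice, had the smallest difference of the 7. It read 6.38, 6.92 and 6.23 in IELs, 4.29, 4.06 and 4.52 in Naive-like cells and 4.73, 4.54 and 4.08 in Type-1 cells. The groups from gut and lymph node did not overlap. IELs were 2.22 ± 0.25 (SE, 4.65-fold) above Naive-like and 2.06 ± 0.25 (4.17-fold) above Type-1 cells.

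Reg3b varied most between IEL arrays. Its values were 7.64, 8.71 and 6.92 in IELs, 3.93, 4.59 and 4.06 in Naive-like cells and 4.47, 4.94 and 4.23 in Type-1 cells. IEL replicate 3 was the lowest IEL array and was still 1.98 above the highest lymph node array. The IEL mean of 7.76 ± 0.90 (SD, n = 3) was 3.57 ± 0.38 (SE, 11.8-fold) above Naive-like and 3.21 ± 0.38 (9.26-fold) above Type-1 cells.

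Reg3g, whose product binds the peptidoglycan of Gram-positive bacteria, read 6.33, 6.7 and 6.06 in IELs, 3.02, 2.8 and 3.4 in Naive-like cells and 3.26, 3.86 and 3.13 in Type-1 cells. The 3 IEL arrays lay above the other 6 and within 0.64 of each other. IELs were 3.29 ± 0.26 (SE, 9.78-fold) above Naive-like and 2.95 ± 0.26 (7.72-fold) above Type-1 cells.

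Ang4, a secreted ribonuclease with antibacterial activity, read 6.98, 7.46 and 6.73 in IELs, 2.8, 3.69 and 2.97 in Naive-like cells and 2.97, 2.79 and 2.6 in Type-1 cells. The IEL arrays were separate from the others by 3.04. The differences were 3.90 ± 0.27 (SE, 14.9-fold) from Naive-like and 4.27 ± 0.27 (19.2-fold) from Type-1 cells.

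**Figure D1:**
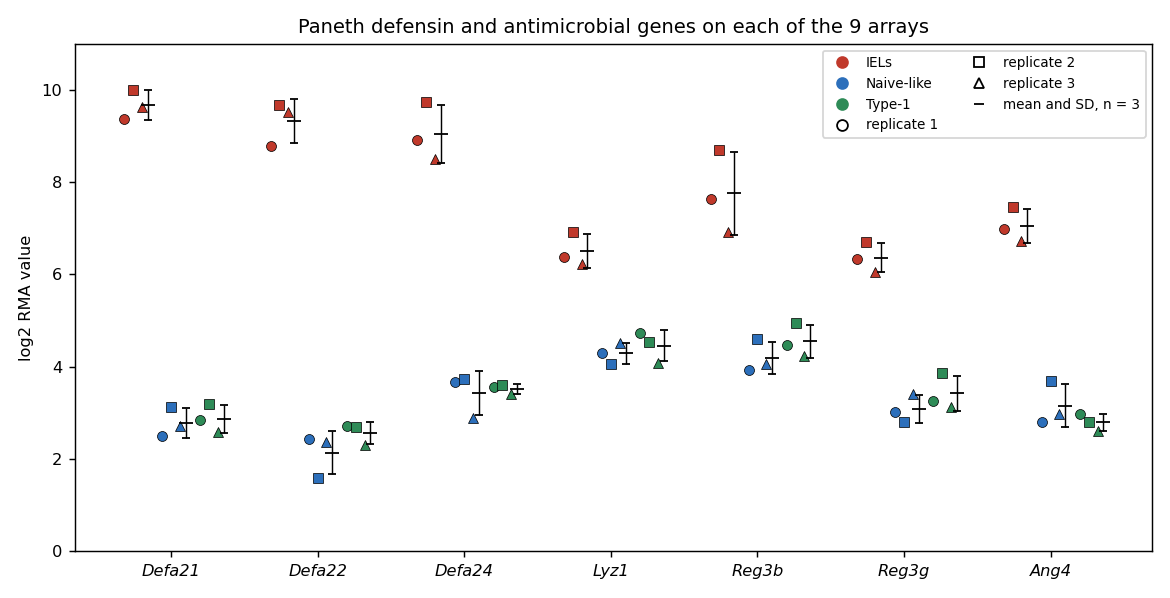
Log2 RMA value (vertical axis) of each of the 7 genes on the 9 arrays, coloured by subset, with a symbol for each replicate number and the mean and SD of 3 arrays beside it. In all 7 genes the 3 IEL arrays lie above the 6 lymph node arrays, and IEL replicate 2, the square, is the highest IEL array.

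All 7 genes had every IEL array above every lymph node array, as did 6.51% of all 22180 genes, and the choice of the genes used that contrast. IELs were at least 3 above both other subsets in 5 of the 7, all but Lyz1 and Reg3g, and in 0.234% of all genes. The median difference over the 7 was 3.90 from Naive-like and 4.27 from Type-1 cells, beside -0.01 and -0.03 over all genes. In cells sorted in bulk, fewer cells that carry a transcript and less of it per cell cannot be told apart.

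Among the lymph node cells, the 7 genes gave no difference that passed the test. In Type-1 against Naive-like cells, a contrast that did not enter the choice of genes, 0 of the 7 passed limma's moderated test at an adjusted p of 0.05, and 0 had an unadjusted p below 0.05. Across all genes 63 passed, or 0.284%, and 6.48% were below an unadjusted 0.05. The largest estimate was that of Defa22, 0.44 higher in Type-1 cells (95% interval -0.19 to 1.07, limma adjusted p = 0.88). Ang4 was the 1 gene with a negative estimate, -0.37 (-0.95 to 0.22, limma adjusted p = 0.90). For Defa21 the estimate was 0.08 (-0.46 to 0.62), for Defa24 0.09 (-0.59 to 0.77), for Lyz1 0.16 (-0.38 to 0.69), for Reg3b 0.36 (-0.48 to 1.19) and for Reg3g 0.34 (-0.22 to 0.90), with limma adjusted p-values of 0.90 to 0.99. The values of the subsets overlapped in all 7 genes, and the subset means, 2.13 to 4.55, lay below or close to the median of all genes (4.52). With no detection calls these values may sit at background, so the intervals describe the spread of the values and do not bound a difference in transcript. That IELs were above both lymph node subsets in every gene follows from the choice of the genes. Between the lymph node subsets no order was seen beyond their spread.

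**Figure D2:**
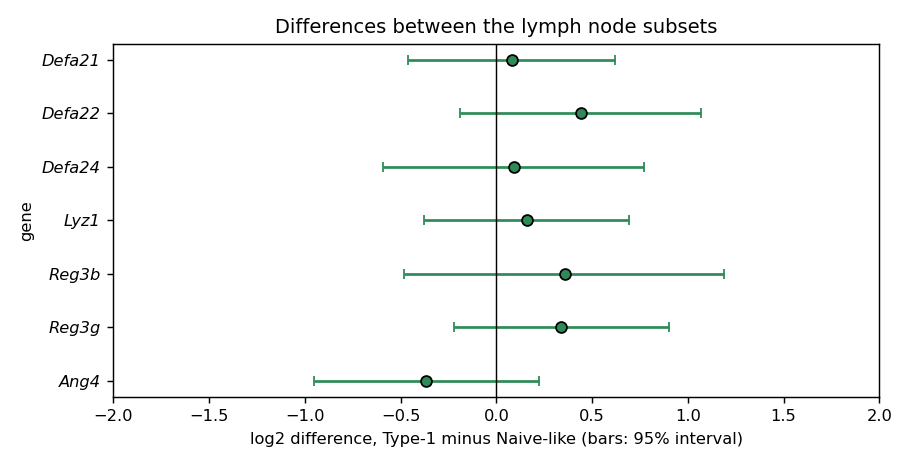
Difference between Type-1 and Naive-like cells in log2 units (horizontal axis) for each of the 7 genes, with its 95% interval from limma over 9 arrays. Every interval includes 0.

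The IEL arrays were then compared singly, since carry-over of material from the gut is possible in such a preparation. IEL replicate 2 was the highest IEL array in all 7 genes, where it was the highest in 31.9% of all genes. The lowest was replicate 1 for Defa21 and Defa22, as for 39.7% of all genes, and replicate 3 for the other 5, as for 34.2%. Replicate 2 exceeded replicate 1 by a median of 0.63 and replicate 3 by a median of 0.69 over the 7 genes, beside 0.03 and 0.03 over all genes. The range over the IEL arrays ran from 0.63 in Defa21 to 1.78 in Reg3b, and the 6 lymph node arrays ranged over 0.67 in Lyz1 to 1.14 in Defa22. Summed on a linear scale, the 7 genes reached 2075, 3528 and 2266 on IEL replicates 1, 2 and 3, 74 to 86 on the Naive-like arrays and 72 to 103 on the Type-1 arrays. Without IEL replicate 2 the differences from Naive-like cells were 6.73 for Defa21, 7.03 for Defa22, 5.28 for Defa24, 2.01 for Lyz1, 3.09 for Reg3b, 3.12 for Reg3g and 3.70 for Ang4. The value of Reg3b moved furthest, from 3.57 to 3.09. Replicate 3 of each subset carries a date code that replicates 1 and 2 lack, and between IEL replicates 1 and 2 the latter was higher in all 7 genes. Other lists did not all share this order: replicate 2 minus replicate 1 had a median of -0.2 over 42 beta-defensins, -0.41 over 5 angiogenin and RNase A family genes, -0.13 over 11 neutrophil and macrophage genes and -0.05 over 6 myeloid markers. The mean log2 values of these lists on the IEL arrays were 3.08 to 3.32, 2.62 to 3.08, 3.72 to 3.89 and 4.25 to 4.33. All lay below the median of all genes (4.52). Many of these values may sit at background, so the lists cannot show whether replicate 2 carried more transcript. Replicate 2 minus replicate 1 had a median of 0.36 over the 5 T-cell and leukocyte genes Cd3d, Cd3e, Cd3g, Ptprc and Trat1. Of these 5, replicate 2 was the highest IEL array in 2, replicate 3 in 2 and replicate 1 in 1. Over 3 B-cell markers the median was 0.25, and replicate 2 was the highest in all 3. The IEL means of Ms4a1 and Cd79a, 3.03 and 3.63, lay below the median of all genes (4.52).

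Markers of epithelial cells shared part of this order over the IEL arrays. IEL replicate 2 was the highest IEL array in 6 of 8 general markers, beside 31.9% of all genes. Replicate 1 was the lowest in 5 and replicate 3 in 3, beside 39.7% and 34.2% of all genes. Of 8 general epithelial markers, 6 rose in IELs against Naive-like cells and 5 against Type-1 cells (limma adjusted p under 0.05), where 5.19% and 5.14% of all genes passed in either direction. The keratin gene Krt19 was the least firm of these, its call being lost under 5 of 20 alternatives against Naive-like cells and under 14 of 20 against Type-1 cells. The summed linear level of the 8 markers was 590, 1187 and 779 on IEL replicates 1, 2 and 3 and 159 to 209 on the lymph node arrays. Cdh1 was the highest of the 8 on every IEL array and so weighs most in these sums. The mean log2 values of the 8, on which it weighs less, were 5.74, 6.39 and 5.75 on IEL replicates 1, 2 and 3. Cdh1 encodes E-cadherin, the adhesion protein between epithelial cells, which some leukocytes make as well, and it read 7.71, 9.28 and 8.72 in IELs, with 4.54 to 5.47 in lymph node cells.

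Of 13 enterocyte markers, 8 rose in IELs against Naive-like cells and 6 against Type-1 cells. Against Naive-like cells the calls of Alpi, Mttp and Krt20 were lost under 8, 6 and 4 of 20 alternatives. Against Type-1 cells that of Krt20 was lost under 9. Their sum was 973, 1057 and 515 on the IEL arrays and 187 to 237 on the lymph node arrays. The fatty acid binding protein gene Fabp1 read 8.38, 7.98 and 6.45 in IELs and 2.81 to 5.35 in lymph node cells, and its relative Fabp2 read 8.26, 7.42 and 6.52 against 3.29 to 3.81. In Fabp1 and Fabp2 replicate 1 and not replicate 2 was the highest. They had the highest values of the 13 on every IEL array and so weigh most in the sums. The mean log2 values of the 13 were 5.25, 5.83 and 5.05 on IEL replicates 1, 2 and 3. Replicate 2 was the highest IEL array in 10 of the 13. Of 6 goblet cell markers, 3 were higher in IELs in each comparison, with sums of 218, 418 and 243 on the IEL arrays and 91 to 119 elsewhere. The Clca1 call against Naive-like cells was lost under 6 of 20 alternatives, and the Fcgbp call against Type-1 cells under 10.

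Of these 27 epithelial, enterocyte and goblet cell markers, 13 were higher in both IEL comparisons. IEL replicate 2 was the highest IEL array in 20 of the 27, beside 31.9% of all genes. Without that array 5, 6 and 2 epithelial, enterocyte and goblet cell markers rose against Naive-like cells, and 4, 5 and 2 against Type-1 cells. Of 5 crypt stem cell markers 1 rose, Olfm4, and of 7 enteroendocrine and tuft cell markers 0 passed (limma), with 1 and 0 at an unadjusted p below 0.05 against Naive-like and Type-1 cells, beside 14.2% and 16.3% of all genes. Of 6 pancreatic acinar markers 1 passed, the elastase gene Cela1, at 6.73 to 7.13 in IELs and 3.95 to 4.55 in lymph node cells. The 5 T-cell and leukocyte genes Cd3d, Cd3e, Cd3g, Ptprc and Trat1 are not particular to γδ T cells. They summed to 12354, 14720 and 13020 on the IEL arrays and to 8285 to 11457 on the lymph node arrays. Of the 5, 1 rose in IELs against Naive-like and 2 against Type-1 cells, the receptor adaptor gene Trat1 in both. Of 3 B-cell markers 0 passed (limma, 0 unadjusted), and of 6 myeloid markers 1 rose, the integrin gene Itgam, by 0.82 ± 0.21 (SE) against Naive-like cells, a call that was lost under 12 of 20 alternatives, among them leaving out any 1 of the 3 IEL arrays. The part of other cells in the values of the 7 genes was not tested.

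**Figure D3:**
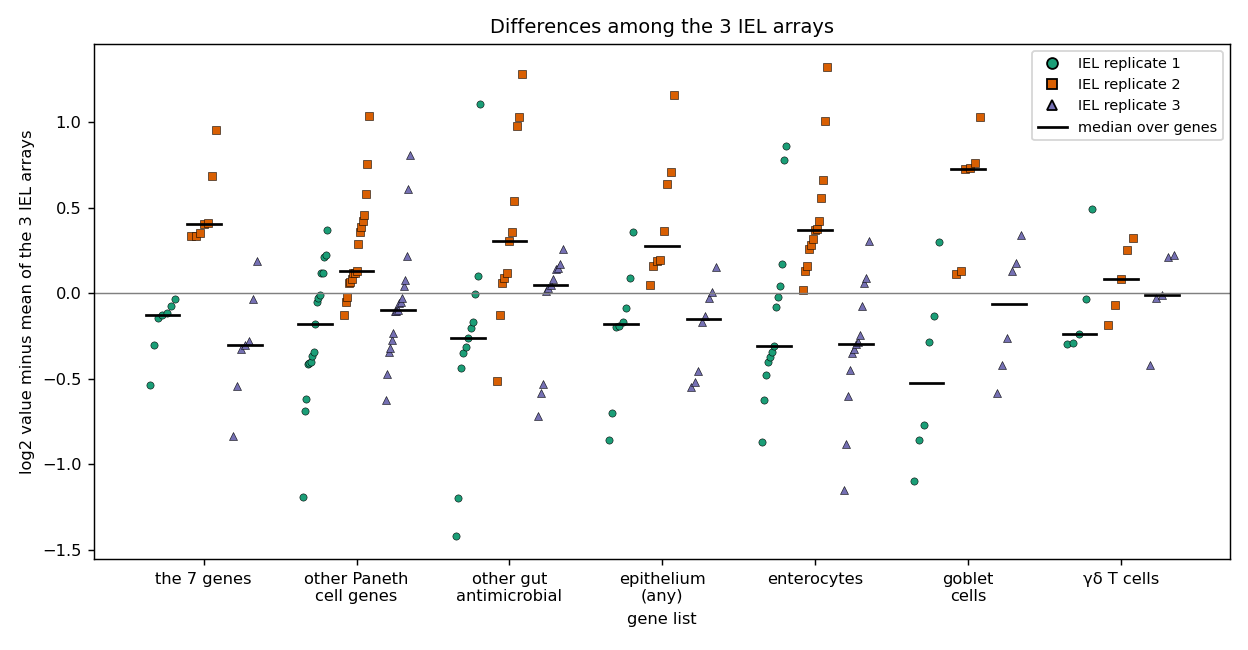
Log2 value minus the mean of the 3 IEL arrays (vertical axis) for the genes of 7 lists, with 1 point per gene and IEL array and a bar at the median over genes. IEL replicate 2 has the highest median of the 3 arrays in every list drawn. Lists not drawn include some without that order, such as the beta-defensins and the RNase A family, whose mean values lay below the median of all genes. The list marked γδ T cells holds Cd3d, Cd3e, Cd3g, Ptprc and Trat1, which are T-cell and leukocyte genes.

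Outside the 7 genes, 130 related genes were listed in 9 groups by role, and 120 had a row. In IELs against Naive-like cells 13 of the 120 were higher and 0 lower (limma, adjusted p under 0.05), where 3.57% of all genes were higher and 1.62% lower. Against Type-1 cells 14 were higher and 2 lower, where 3.73% and 1.41% of all genes were. The median difference over the 120 genes was 0.04 and -0.02, beside -0.01 and -0.03 over all genes. Without IEL replicate 2, 13 were higher against Naive-like cells and 12 against Type-1 cells. In Type-1 against Naive-like cells 1 of the 120 was higher, Pglyrp1, and 0 were lower, beside 0.212% and 0.0721% of all genes. At an unadjusted limma p below 0.05 there were 10 of the 120, beside 6.48% of all genes.

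Of the 10 other alpha-defensins with a row, 4 rose in IELs against both lymph node subsets. Defa41 read 5.46, 5.88 and 5.57 in IELs, 3.68, 2.83 and 2.97 in Naive-like cells and 2.95, 2.72 and 1.93 in Type-1 cells, and was 2.47 ± 0.30 (SE, limma adjusted p = 0.00025) above Naive-like cells. Defa39 read 7.09, 8.11 and 6.34 in IELs and 4.13 to 5.23 in lymph node cells, a difference of 2.58 ± 0.41 (limma adjusted p = 0.0020) from Naive-like cells. The rises of Defa26, 2.39 ± 0.36 (limma adjusted p = 0.0015), and of Defa33, 2.24 ± 0.33 (limma adjusted p = 0.0012), were of similar size. All 4 were smaller than the differences of Defa21, Defa22 and Defa24, though array rows differ in how far they respond. The other 6 did not pass, with differences from Naive-like cells of 0.65 for Defa40, 0.43 for Defa-ps1, 0.30 for Defa-ps12, 0.07 for Defa-ps13, -0.11 for Defa35 and -0.54 for Defa34. The Defa-ps symbols name pseudogenes, and their IEL means, 3.59, 2.75 and 1.86, lay below the median of all genes (4.52).

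A further 9 rows carried several alpha-defensin symbols each and were not tested. In 8 of them all IEL arrays were above all lymph node arrays, beside 6.51% of all genes, and in 7 IELs were at least 4 above both other subsets. IEL replicate 2 was the highest IEL array in 9 of 9, beside 31.9% of all genes. Several of these rows carry the same symbols, so the 9 are not separate observations. The row shared by Defa17, Defa2 and Defa3 read 10.77, 11.55 and 10.00 in IELs and 3.52 to 4.11 in lymph node cells, whereas the row shared by Defa25 and Defa27 differed by 0.18 from Naive-like and by -0.14 from Type-1 cells.

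**Figure D4:**
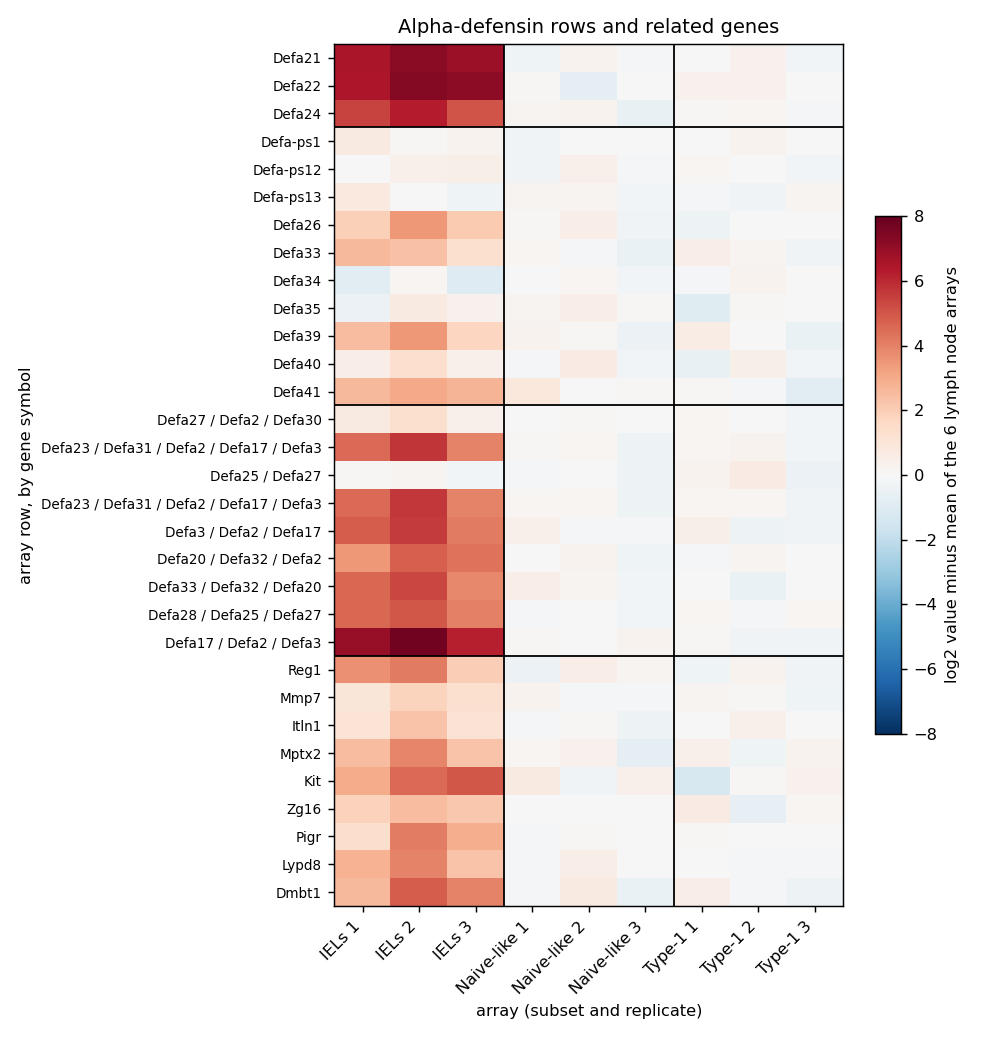
Log2 value minus the mean of the 6 lymph node arrays, as colour, for the alpha-defensin rows of a single symbol, those of several symbols, and the other related genes called higher in both IEL comparisons, on each of the 9 arrays. The IEL columns are red in Defa21, Defa22, Defa24 and in 7 of the 9 shared rows, and near 0 in 6 of the other single-symbol rows.

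Beta-defensins, the epithelial defensin family outside the Paneth cell, gave 0 of 42 in either IEL comparison (limma), with 3 at an unadjusted p below 0.05 in each. The largest differences from Naive-like cells were those of Defb7, 0.82 (limma adjusted p = 0.32), and Defb23, -0.75 (limma adjusted p = 0.095). Of 5 further Reg genes, 1 rose in IELs: Reg1, a secreted lectin of the same family, read 6.25, 6.73 and 4.55 in IELs and 2.11 to 3.11 in lymph node cells, a difference of 3.17 ± 0.47 (SE, limma adjusted p = 0.0011) from Naive-like cells. Reg2, Reg3a, Reg3d and Reg4 differed by 0.09 to 0.58 and did not pass. Of 5 angiogenin and RNase A family genes 0 passed in either IEL comparison (limma, 0 unadjusted), with Rnase6 at -0.53 (limma adjusted p = 0.64) and Rnase2a at 0.3 (limma adjusted p = 0.73) from Naive-like cells. Of 6 other lysozyme genes 0 passed (limma, 1 unadjusted in each comparison), and Lalba, the lysozyme relative alpha-lactalbumin, differed by 0.19 from Naive-like cells. Lyz2, the lysozyme of macrophages and neutrophils in mice, read 4.91, 4.93 and 4.90 in IELs against 3.92, 4.82 and 3.02 in Naive-like and 5.63, 3.96 and 4.71 in Type-1 cells.

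Of 17 other Paneth cell genes 4 rose in IELs against both subsets. Mptx2, a secreted pentraxin, read 6.89, 8.34 and 6.68 in IELs and 3.64 to 4.82 in lymph node cells, a difference of 2.99 ± 0.42 (SE, limma adjusted p = 0.0008) from Naive-like cells. The defensin-processing protease Mmp7 rose by 1.32 ± 0.25 (limma adjusted p = 0.0072), a call that was lost with the mean of its rows. Itln1, the lectin intelectin, rose by 1.67 ± 0.30 (limma adjusted p = 0.0047). Against Type-1 cells, where it rose by 1.39, its call was lost without IEL replicate 2 (limma adjusted p = 0.05) and without Type-1 replicate 1. The receptor tyrosine kinase gene Kit read 8.75, 10.33 and 10.75 in IELs and 4.48 to 6.50 in lymph node cells. It was highest on IEL replicate 3, whereas Mptx2, Mmp7 and Itln1 were highest on IEL replicate 2. Which cells gave the Kit signal was not tested. Mptx1, another pentraxin, read 2.64 to 2.99 in IELs, with a difference of -0.03 from Naive-like cells.

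Of 11 antimicrobial genes that other gut epithelial cells also make, 4 were higher in IELs in both comparisons. Dmbt1, a secreted scavenger receptor, rose by 3.83 ± 0.49 (SE, limma adjusted p = 0.00039) against Naive-like cells, and Lypd8, which holds flagellated bacteria off the colonic epithelium, rose by 2.92 ± 0.36 (limma adjusted p = 0.00029). Pigr, the receptor that carries IgA across the epithelium, read 5.21, 7.91 and 6.77 in IELs and 3.67 to 3.95 in lymph node cells. Zg16, a lectin of goblet cells, read 4.78, 5.40 and 5.11 in IELs and 2.27 to 3.55 in lymph node cells, a rise of 2.21 ± 0.29 (limma adjusted p = 0.0005) over Naive-like cells. In the 13 related genes called higher in both IEL comparisons, IEL replicate 2 was the highest IEL array in 11, beside 31.9% of all genes.

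Of 11 antimicrobial genes of neutrophils and macrophages, 0 were higher in IELs (limma, 0 unadjusted). Pglyrp1, a peptidoglycan recognition protein, read 8.06, 8.29 and 8.02 in Type-1 cells, 6.31, 6.53 and 6.71 in Naive-like cells and 6.71, 6.42 and 6.25 in IELs. It passed in both comparisons of Type-1 cells, by 1.61 ± 0.20 over Naive-like cells (SE, limma adjusted p = 0.0033) and with IELs at -1.67 ± 0.20 from Type-1 cells (limma adjusted p = 0.00029). Of 13 signals and factors known to act upstream of these genes, 0 passed against Naive-like cells (limma, 4 unadjusted). Il22, the cytokine that raises Reg3 transcription, differed by -0.01, and Il18, another cytokine of the barrier, by 1.26 ± 0.34 (limma adjusted p = 0.053). Against Type-1 cells Il10rb, a chain of the interleukin-22 receptor, was at -1.31 ± 0.22 (limma adjusted p = 0.004), and Gfi1, a transcription factor of secretory cells that T cells make as well, was 0.97 ± 0.20 higher (limma adjusted p = 0.013). The Gfi1 call was lost without IEL replicate 2 (limma adjusted p = 0.07), without IEL replicate 3 (limma adjusted p = 0.051) and without Type-1 replicate 2.

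**Figure D5:**
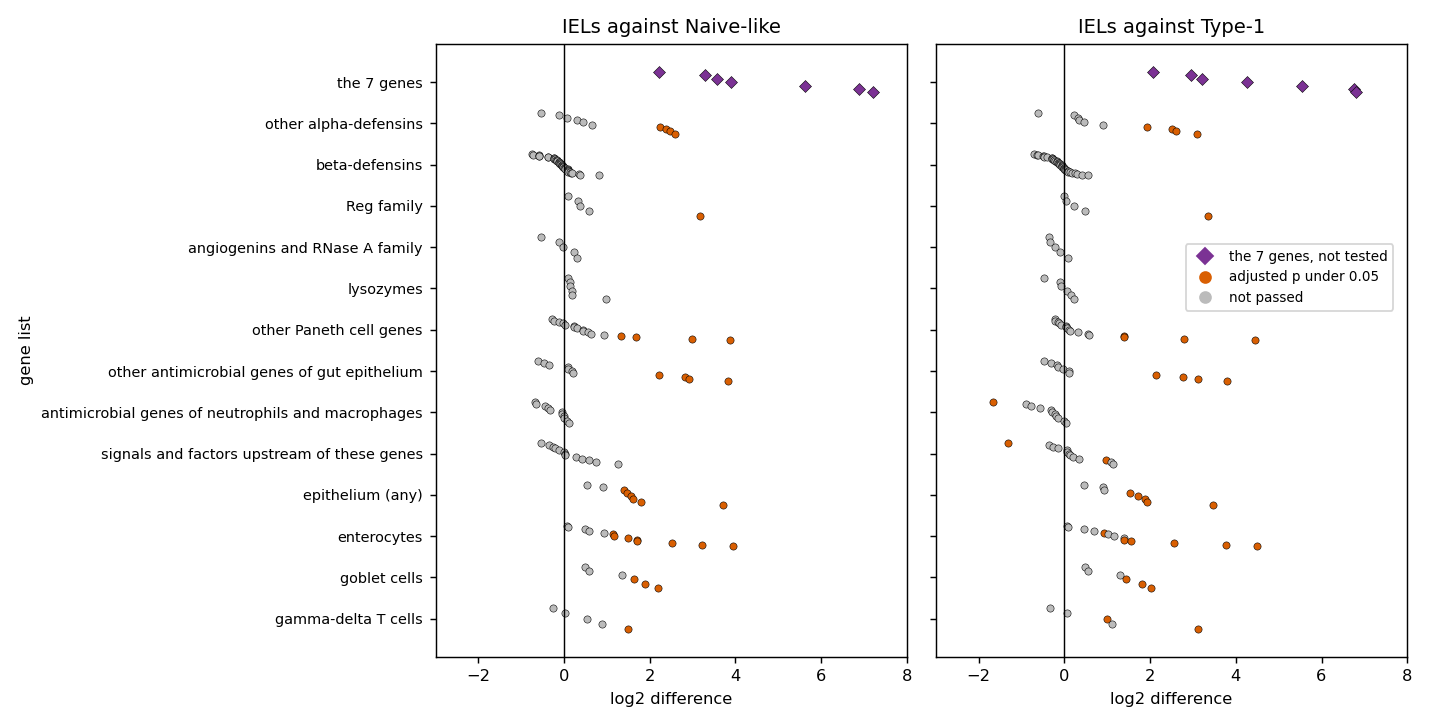
Log2 difference of IELs from Naive-like cells (left) and from Type-1 cells (right) on the horizontal axis, with 1 point per gene and 1 line per gene list. Diamonds are the 7 genes, which were not tested, and orange points passed limma at an adjusted p of 0.05. The line marked gamma-delta T cells holds Cd3d, Cd3e, Cd3g, Ptprc and Trat1, which are T-cell and leukocyte genes. In the other alpha-defensin, other Paneth cell and gut antimicrobial lists 4 points each passed to the right of 0, and in the beta-defensin and lysozyme lists none passed.

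The genes whose pattern over the 9 arrays was closest to each of the 7 were found by the root mean square difference of values centred on each gene's mean. Defa21 and Defa22 were closest to each other (0.43), and outside the 7 both were closest to the carbonic anhydrase gene Car2 (0.50 and 0.63), then to the inhibitory receptor gene Tigit (0.74 for each). For Defa24 the closest were Car2 (0.45), the receptor gene Glp1r (0.49) and the granzyme gene Gzma (0.56). The gene closest to Defa21 and Defa22 after Tigit was the granzyme gene Gzmb (0.75 and 0.82). Tigit and the granzymes are known as genes of lymphocytes, whereas Lypd8, the closest to Reg3b, was among the gut epithelial genes above. Reg3b was closest to Lypd8 (0.35), Reg1 (0.36) and Tm4sf20 (0.37), and Reg3g to the alcohol dehydrogenase gene Adh1 (0.28), B4galnt2 (0.29) and Tm4sf20 (0.31). Reg3b and Reg3g lay 0.41 apart. Ang4 was nearest to Gpr34 (0.40), Scin (0.40) and Apol9b (0.43), and Lyz1 to Igh-VS107 (0.18), Plekhf1 (0.28) and Vipr2 (0.28). Nearest to the mean of the 7 were Glp1r (0.25), the granzyme gene Gzmk (0.39) and Apol9b (0.40), followed by Gm12253, Cd200r1, Gpr34, Cfap126, Itgax, Prr5 and Scin at 0.45 to 0.57. This measure follows the size of the difference between gut and lymph node, which the choice of the genes used. The cells that a transcript came from cannot be read from it. The farthest pair among the 7 was Defa22 and Lyz1, at 2.3.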

How the data were processed

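The deposited table holds log2 values of 41345 array rows on 9 arrays, which the authors made with RMA in oligo, as the submitters' processing notes name them (versions not given in the sources used here). RMA normalizes arrays to each other and sums probes into rows, and it compresses differences of dim genes. The deposited log2 values come without detection calls, and the number of arrays limits the precision. Rows were named through the platform annotation: 23521 had 1 symbol, 1814 several and 16010 none. Genes with a row of 1 symbol (22180) were each taken by the row of highest mean. The 7 genes and the lists were chosen with earlier results of these data known. Other named genes were, per list, up to 4 that passed in an IEL comparison, by difference from Naive-like cells, or 2 where none passed, every other alpha-defensin row, and the 3 nearest genes of each of the 7. Named outside this rule, after their values were seen, were Il18, Il22, Stat3, Mptx1, Ms4a1, Reg2, Reg3a, Reg3d, Reg4 and the T-cell genes.

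Differences came from limma 3.58.1 in R 4.3.3 (1 mean per subset, 6 residual and 6 prior degrees of freedom), two-sided, Benjamini-Hochberg adjusted over 22180 genes, and the fit was tested on simulated data. Linear sums add 2 to the power of each value. Same-numbered arrays of different subsets had deviations correlated at -0.01 to 0.38, over 0.1 in 5 of 9 pairs, so replicate numbers were not taken as pairs. The 3 pairs of replicate 3, which share a date code, were the highest (0.23, 0.3 and 0.38). Alternatives were other normalizations, a filter on dim genes, trend, weights, the mean of rows, only the compared subsets, the date code carried by replicate 3 of each subset, the replicate number, and each array left out. Tables used pandas 2.3.3 and Biopython 1.88, plots matplotlib 3.10.9.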

Additional observations from a re-analysis of the deposited data

How the results depend on the processing

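Under the 20 alternatives the median difference of the 7 genes stayed at 3.7 to 4.17 from Naive-like cells, at 4.06 to 4.43 from Type-1 cells and at 0.1 to 0.45 between the lymph node subsets, with 0 of 7 called in the last (limma, 0 at an unadjusted p below 0.05 with all arrays). The difference from Naive-like cells ranged over 3.09 to 3.98 for Reg3b and over 2.01 to 2.47 for Lyz1. Related genes called in IELs against Naive-like cells fell from 13 to 8 with a filter at the 40th percentile of mean, which tests fewer genes. Over all genes, the count for IELs against Naive-like cells rose from 1152 to 1920 with array weights and fell to 534 on the 6 arrays without the date code, which has fewer samples. On those 6 arrays 565 genes were called for IELs against Type-1 cells, and 20 between the lymph node subsets, 0 of these among the related genes (limma), and the calls of Itln1, Mmp7, Pigr, Gfi1, Il10rb and of Pglyrp1 between the lymph node subsets were lost. So were, in 1 or both IEL comparisons, those of the markers Krt19, Elf3, Alpi, Krt20, Mttp, Sis, Clca1, Fcgbp, Cd3g and Itgam. Leaving out 1 array gave 826 to 1227, 724 to 1308 and 34 to 87 calls for IELs against Naive-like, IELs against Type-1 and Type-1 against Naive-like cells. The middle range was lowest without IEL replicate 3 (724) and IEL replicate 2 (732), and the last was 34 without Naive-like replicate 3. With the replicate number as a block, which the numbers do not justify as a pairing, 1378, 1405 and 81 genes were called and 14, 19 and 1 related genes. With no detection calls, how far the lymph node values lie above background is not known, and the folds of the 7 genes depend on those values.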
